A study of Mus musculus with 6 samples.

Results

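The voltage-gated sodium channel subunits examined here are 7 genes, the 4 alpha subunits Scn1a, Scn2a, Scn3a and Scn8a and the 3 beta subunits Scn2b, Scn3b and Scn4b. They were chosen by family, on the condition that each has a value in every library, and they are 7 of the 15441 genes with a value in any library and of the 11750 genes with a value in all 6. Male C57/BL6J mice aged 6 to 8 weeks received photothrombosis, in which the dye Rose Bengal and cold light over the sensorimotor cortex close vessels, and the ipsilateral cortex was taken at day 1, 3, 7, 14 or 28 post-stroke. Sham mice had the operation without illumination and were taken at day 7 after it. Each of the 6 libraries was made from poly(A) RNA pooled from 3 mice, so there is 1 library per group, no difference has a replicate check, and no test was possible. Values are the authors' FPKM, read pairs scaled to transcript length and to library size, and the depth of each library is unknown beside a stated average of 33.6 M reads.

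An alpha subunit is a large protein that forms the whole sodium-selective pore and its voltage sensors, and it carries the inward current that starts the action potential. Beta subunits are small proteins with a single membrane span and an immunoglobulin-like outer domain, which change the gating of the pore and its placement in the membrane. In cortex, sodium channels gather at the axon initial segment and at nodes of Ranvier.

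The deposited FPKM belong to transcript starts, transcript ends and splicing events, not to genes. The gene value used was the largest of the summed starts, the summed ends and any single event, and a gene with no event in a library is called not listed. For Scn1a, Scn2a and Scn3a this was the value at the 3′ end of the transcript, for Scn8a, Scn2b and Scn3b it was the value at the 5′ end, and for Scn4b both were the same in each library. Ratios to sham are log2((FPKM + 0.1)/(sham FPKM + 0.1)), and genes were compared where 1 of the 2 libraries reached 1 FPKM.

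Among the subunits, the lower values after stroke were mainly those of Scn1a and Scn2a. Scn1a (chr2:66270778-66440840, minus strand, GRCm38), the alpha subunit of many inhibitory interneurons, had 19.7 FPKM in sham and 16.0, 7.68, 5.82, 12.4 and 19.2 FPKM at days 1, 3, 7, 14 and 28. Its value was lowest at day 7 and at day 28 was close to sham, with log2 ratios of -0.29, -1.34, -1.74, -0.66 and -0.03 in order of day. Scn2a (chr2:65620771-65767447, plus strand), the subunit of excitatory neurons and unmyelinated axons, had 40.6 FPKM in sham and 18.9, 24.1, 22.7, 21.9 and 25.3 at days 1, 3, 7, 14 and 28. All 5 post-stroke libraries were below sham for Scn2a, at 46.6% of it at day 1 and still 62.4% at day 28, and the log2 ratios were -1.10, -0.75, -0.84, -0.89 and -0.68.

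The other alpha subunits followed neither course. Scn8a (chr15:100869858-101045938, plus strand), the main subunit of mature initial segments and nodes, had 19.3 FPKM in sham and 12.7, 22.9, 18.4, 14.7 and 15.5 FPKM at days 1, 3, 7, 14 and 28. It was lowest at day 1 and highest at day 3, with log2 ratios of -0.60, 0.24, -0.07, -0.39 and -0.31. Scn3a (chr2:65457118-65567627, minus strand), the subunit known for its fetal expression, was the least abundant member in every library, with 3.32 FPKM in sham and 2.66, 3.62, 3.85, 5.97 and 3.59 at the 5 days. Its highest value was at day 14, with a log2 ratio of 0.83, and the ratios at the other days were -0.31, 0.12, 0.21 and 0.11.

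By the gene value, the beta subunits varied less. Scn2b (chr9:45117782-45130070, plus strand), whose protein is joined to the alpha subunit by a disulfide bond, had 40.4 FPKM in sham and 33.0, 35.3, 34.8, 35.4 and 38.8 at days 1 to 28. Scn3b (chr9:40269217-40291618, plus strand), which binds the alpha subunit without such a bond, had 24.9 FPKM in sham and 24.3, 22.1, 23.7, 22.3 and 30.3 after stroke. Scn4b (chr9:45138395-45154152, plus strand), which is abundant in striatal neurons and is linked to resurgent sodium current, had 35.7 FPKM in sham and 25.0, 24.5, 30.5, 30.4 and 36.8 after stroke. From the lowest to the highest library, the beta subunits spanned 1.23-fold for Scn2b, 1.37-fold for Scn3b and the range from 24.5 to 36.8 FPKM for Scn4b, against 1.80-fold for Scn8a, 2.15-fold for Scn2a, 2.25-fold for Scn3a and 3.37-fold for Scn1a. The lowest beta ratio to sham was the -0.54 of Scn4b at day 3, and the highest the 0.28 of Scn3b at day 28. The listed end events of Scn3b, which are not in its gene value, went the other way, from 3.01 FPKM in sham to 0.851 FPKM at day 28. They were highest at day 7 (3.71 FPKM). These ends lie before the annotated end of the gene, the last at chr9:40289222-40289515. Their FPKM was between 0.028 (day 28) and 0.157 (day 7) of that of the Scn3b starts, so they cover a minor part of its signal.

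**Figure D1:**
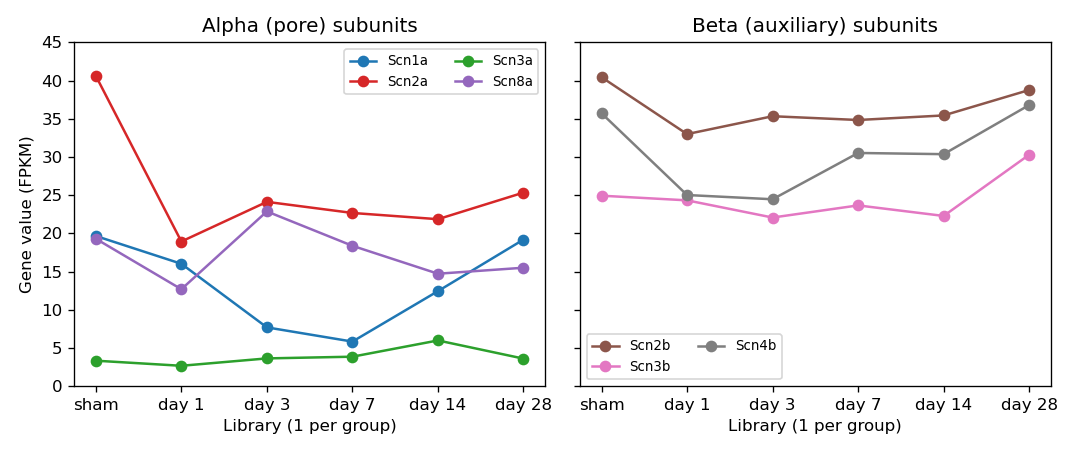
Gene value in FPKM of the 4 alpha and 3 beta subunits in each of the 6 libraries, 1 point per library. Scn1a has its lowest point at day 7 (5.82 FPKM) and Scn2a at day 1 (18.9 FPKM), while the beta subunits stay between 22.1 and 40.4 FPKM.

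Levels of different subunits within a library are hard to set side by side, because the values come from different ends of the transcripts. By the gene value Scn2a was above Scn8a in sham (40.6 and 19.3 FPKM), but by starts alone Scn8a was above Scn2a in every library (19.3 and 13.3 FPKM in sham, 14.7 and 1.23 FPKM at day 14). The order of the subunits by level therefore depends on the events used. Summed over subunits, alpha FPKM was 82.9 in sham and 50.3, 58.3, 50.7, 54.97 and 63.6 post-stroke, and beta FPKM 101.1 in sham and 82.3, 81.9, 89.0, 88.1 and 105.9. With the same mixture of ends, the ratio of the alpha to the beta sum was 0.820 in sham and between 0.570 (day 7) and 0.712 (day 3) post-stroke.

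The median log2 ratio of the 4 alpha subunits was -0.46, -0.31, -0.45, -0.52 and -0.17 at days 1, 3, 7, 14 and 28. For the 3 beta subunits the medians were -0.29, -0.19, -0.21, -0.19 and 0.04. Over all genes compared, 11751 to 12069 per day, the medians were 0.01, 0.03, 0.03, 0.10 and 0.03. Alpha minus beta was therefore -0.16, -0.12, -0.24, -0.33 and -0.22 at days 1, 3, 7, 14 and 28. The sign at day 1 turned, however, to 0.04 with a correction for transcript length. It also turned to 0.32 at day 1 and 0.80 at day 28 when transcript ends alone were used. The 2 beta values by ends were those of Scn4b and of the minor Scn3b ends. The alpha values were also wide apart, from -1.74 to 0.21 at day 7, so that a median over 4 genes stands for no single subunit. The 5 comparisons share the sham library, and a sham value that was high by itself would lower all of them.

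In number, 1 of 7 subunits was lower by at least 2-fold at day 1 (Scn2a), beside 4.48% of all genes compared. It was 1 of 7 at day 3 and 1 of 7 at day 7 (Scn1a both times), beside 2.53% and 2.12%, and 0 of 7 at day 14 and at day 28, beside 6.92% and 2.79%. None of the 7 was higher by 2-fold at any day, beside 5.11%, 8.54%, 8.53%, 8.97% and 3.68% of all genes at days 1, 3, 7, 14 and 28. With a 1.5-fold threshold, Scn2a and Scn8a were lower at day 1, Scn1a and Scn2a at days 3, 7 and 14, and Scn2a alone at day 28, which is 2, 2, 2, 2 and 1 of 7 beside 11.2%, 6.6%, 6.05%, 13.4% and 6.92% of all genes. Scn3a at day 14 was higher by that threshold, 1 of 7 beside 18.5%. With so few members, each count rests on 1 or 2 genes, and no beta subunit was past either threshold.

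**Figure D2:**
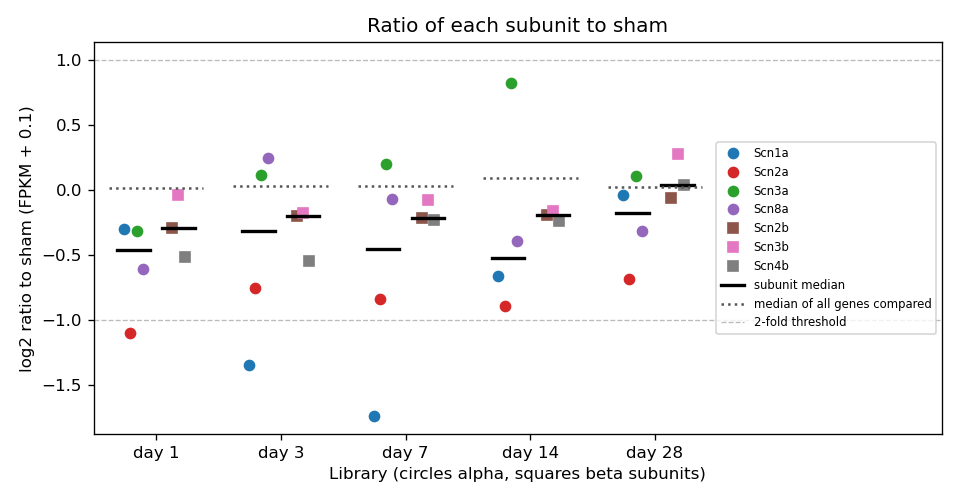
Log2 ratio to sham of each alpha (circles) and beta (squares) subunit by day, with black bars for the subunit medians, dotted lines for the median of all genes compared and dashed lines for the 2-fold threshold. Scn2a at day 1 (-1.10) and Scn1a at days 3 and 7 (-1.34 and -1.74) lie below the lower threshold, and the beta subunits lie between -0.54 and 0.28.

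Whether the contrast of alpha and beta subunits is also one of long and short transcripts was examined next. The longest annotated transcript is 8386 nt for Scn1a, 8935 nt for Scn2a, 9560 nt for Scn3a and 11436 nt for Scn8a, and 4656, 4150 and 4982 nt for Scn2b, Scn3b and Scn4b. Genes as long as the alpha subunits, 426 to 438 per day, had median log2 ratios of -0.28, 0.06, -0.01, -0.37 and -0.02 in order of day. Genes as long as the beta subunits, 1495 to 1528 per day, had -0.07, 0.03, 0.04, -0.08 and 0.03. The difference of these medians was -0.22 at day 1 and -0.29 at day 14, beside -0.16 and -0.33 for the subunits, whereas at days 3, 7 and 28 it was 0.03, -0.04 and -0.05, beside -0.12, -0.24 and -0.22. With the correction for length, the alpha minus beta difference was 0.04 at day 1 and -0.09 at day 14. Without that correction the mean gave -0.30 and -0.08 at these days, and starts alone -0.86 and -1.67. The contrast at these days thus depended on the construction, and the part of length in it cannot be told apart. After the same correction the ratio of Scn2a at day 1 was -0.79, no longer past the 2-fold threshold, while Scn1a at days 3 and 7 had -1.39 and -1.70, and Scn3a at day 14 had 1.19.

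The ends of the long transcripts differed in the same libraries. Summed start events of Scn2a were 13.3 FPKM in sham and 2.77, 8.90, 9.44, 1.23 and 8.41 FPKM at days 1, 3, 7, 14 and 28. Its end event was therefore 3.05 times its starts in sham, 2.71, 2.40 and 3.01 times at days 3, 7 and 28, but 6.83 times at day 1 and 17.8 times at day 14. For Scn1a the summed starts were 6.45 FPKM in sham and 1.91, 2.64, 2.57 and 4.34 FPKM at days 1, 3, 7 and 28, with no start listed at day 14. By its starts Scn1a was lowest at day 1 among the libraries that list one, and by its end at day 7, so the day of its lowest value depends on the end of the transcript that is read. Scn3a had starts of 1.87, 1.52, 1.34, 3.85 and 3.59 FPKM in sham and at days 1, 3, 7 and 28, and again none at day 14, the library in which its end value was highest. Of the alpha subunits measured at both ends, the lower value at days 3 and 7 was present at both ends for Scn1a and Scn2a.

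**Figure D3:**
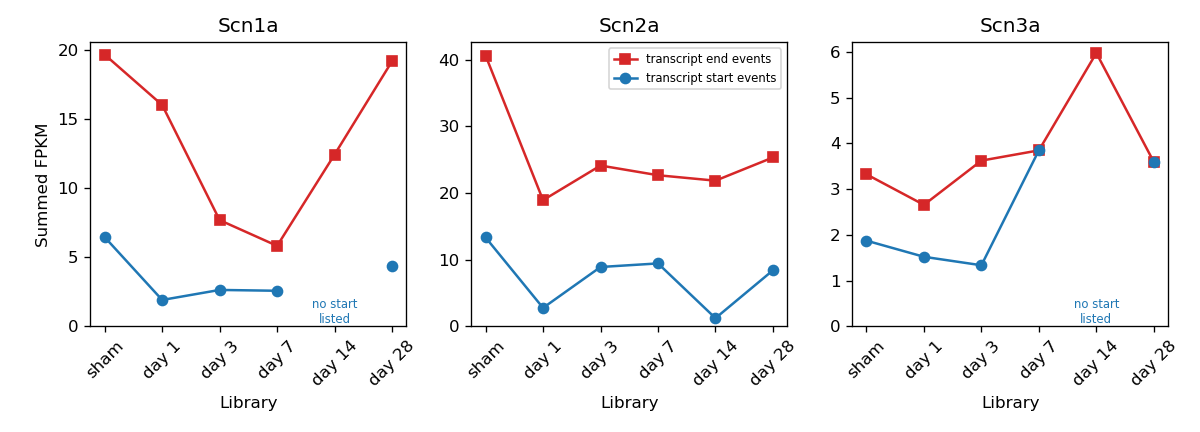
Summed FPKM of the transcript end events (red squares) and transcript start events (blue circles) of Scn1a, Scn2a and Scn3a in each library, each panel with its own scale from 0. At day 14 Scn1a and Scn3a have no listed start, and the starts of Scn2a are at 1.23 FPKM beside an end of 21.9 FPKM.

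This pattern was not limited to the channels. Of genes with a longest transcript over 6000 nt and an end event of at least 1 FPKM, 4.45% (55 of 1235) had no start event in sham. The share was 28.4% (327 of 1150) at day 14 and 9.33% (113 of 1211) at day 1, and 3.47%, 3.39% and 5.34% at days 3, 7 and 28. Among genes of 3000 nt or less the share was 3.33% in sham and 5.44% at day 14. The 6000 nt limit was chosen after the values were seen. The paper's methods give a lower bound on the RNA integrity number that all samples passed, and no value per library. RNA quality values were not used here, and what sets the day 1 and day 14 libraries apart was not tested. For the alpha subunits, a ratio at day 1 or day 14 therefore rests on the 3′ part of the transcript for Scn1a, Scn2a and Scn3a.

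**Figure D4:**
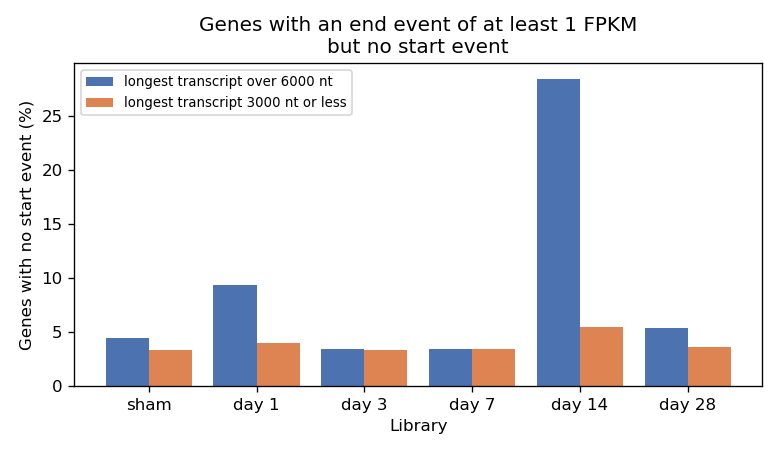
Percentage of genes with an end event of at least 1 FPKM but no start event, by library, for long (blue) and short (orange) transcripts. Long genes reach 28.4% at day 14 and 9.33% at day 1, and lie between 3.39% and 5.34% in the other libraries.

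Transcript starts of Scn8a changed more than its level. The start at chr15:100936271-100936600, an exon of 7 annotated transcripts and the first exon of 1 of them, held 18.4 FPKM in sham and 9.38, 0.153, 8.45, 14.5 and 15.1 FPKM at days 1, 3, 7, 14 and 28. The upstream start at chr15:100870904-100871068 held 0.806 FPKM in sham and 3.13, 12.3, 8.92 and 0.255 FPKM at days 1, 3, 7 and 28, and was not listed at day 14. A further upstream start, chr15:100870645-100870743, was listed only at day 3 (9.89 FPKM) and day 7 (0.483 FPKM). As a share of all Scn8a starts, the downstream exon held 95.3% in sham and 74.0%, 0.670%, 46.0%, 98.4% and 97.3% in the 5 post-stroke libraries in order of day. The last bases before this exon, from the RefSeq promoter table of GRCm38.p6 (chr15:100936241-100936270, plus strand), are shown because they bear on whether it is a start or an inner exon, and the capitals mark the AG that also stands before exons at a 3′ splice site.

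Scn8a, 30 bases before the downstream start: ttaacgctgcctgtgttgctgttcttccAG

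How a start is defined for a transcript recovered without its upstream exons is not stated in the sources used here, and if such a transcript is given a start at its first recovered exon, it would be listed at this one. The start values of all genes carry this doubt, and what the Scn8a values reflect was not tested. Of the Scn8a starts, the one at chr15:100870645-100870743 and the downstream one have promoter windows of 300 bases, with 38 and 12 CG dinucleotides. Scn4b had 26, Scn1a 5, Scn2b 2 and the pair of Scn2a windows 3 and 9, beside a median of 7 over 32851 windows, and 5 of the 7 subunits had a window in the table.

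Scn3b also had a pair of starts. The upstream one, chr9:40269217-40269602, held 48.7% of its start FPKM in sham and 49.0%, 59.0%, 65.5%, 34.6% and 77.3% at days 1, 3, 7, 14 and 28. In FPKM it went from 12.1 in sham to 7.71 at day 14 and 23.4 at day 28, while the downstream one, chr9:40269687-40270047, went from 12.8 to 14.6 and 6.89. The higher Scn3b value at day 28 therefore lay in the upstream start. Scn4b had 1 start and 1 end with the same FPKM in each library, and Scn2b had 1 start in every library except day 14, where a second of 3.64 FPKM was listed at chr9:45118238-45118294.

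**Figure D5:**
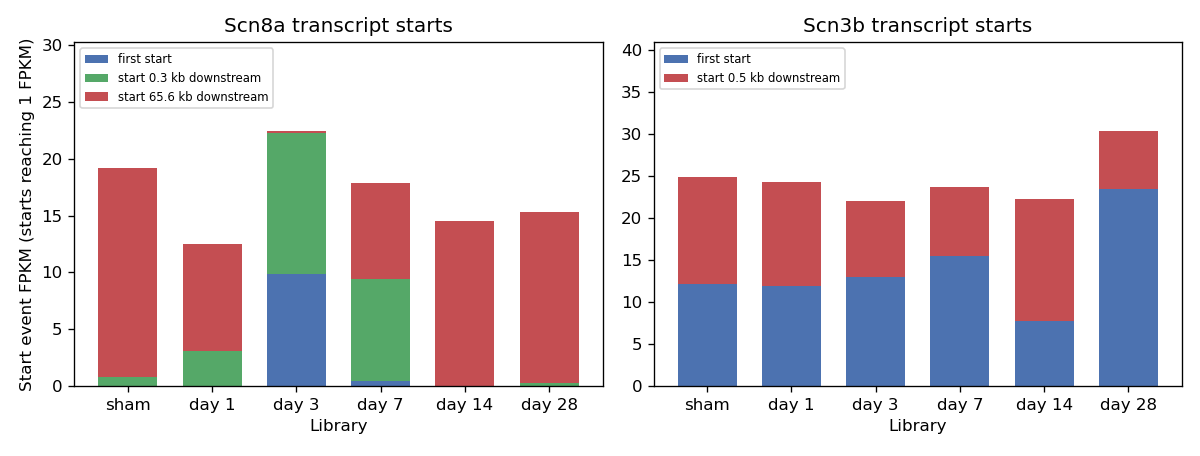
Stacked FPKM of the Scn8a and Scn3b transcript starts that reach 1 FPKM in any library, coloured by position from the first start downstream. The downstream Scn8a start (red) holds 18.4 FPKM in sham and 0.153 FPKM at day 3, and the first Scn3b start (blue) holds 23.4 FPKM at day 28.

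Some splicing forms of the alpha subunits were listed in some of the libraries and not in others. In Scn1a, an exon of 64 nt (chr2:66293832-66293895, minus strand) that GENCODE M21 places in a transcript subject to nonsense-mediated decay, the removal of RNA with an early stop codon, was skipped in all 6 libraries. The form with the exon was listed at day 7 only, at 1.20 FPKM beside 4.63 FPKM without it, or 20.6% of the 2 forms. Its length is no multiple of 3, so its inclusion shifts the reading frame. Also at day 7 only, an intron of 5112 nt (chr2:66280800-66285911) was listed as kept in Scn1a, at the same 5.82 FPKM as its end event. The lowest Scn1a value thus came from the library in which the form with this intron kept held all the FPKM of its end event. FPKM is divided by transcript length, and the part of that longer form in the value was not tested.

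Scn8a has a segment of 30 nt at the 3′ side of a coding exon (chr15:100984046-100984075, plus strand), or 10 codons, which was listed in sham only, at 0.324 FPKM beside 18.9 FPKM without it. This segment, the Scn1a exon of 64 nt and a pair of neighbouring Scn8a exons are shown 5′ to 3′ from the GENCODE M21 transcripts. They were chosen after the values were seen. All but the Scn8a exon of 68 nt are examples of parts of the channel RNA that differ between listed forms. That exon was listed only as skipped.

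Scn1a exon of 64 nt: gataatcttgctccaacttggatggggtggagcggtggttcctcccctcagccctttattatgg
Scn8a segment of 30 nt: gtgaaaatagataaggcagctacagacagt
Scn8a exon of 68 nt: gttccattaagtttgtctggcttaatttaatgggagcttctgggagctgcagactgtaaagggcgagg
Scn8a exon of 123 nt: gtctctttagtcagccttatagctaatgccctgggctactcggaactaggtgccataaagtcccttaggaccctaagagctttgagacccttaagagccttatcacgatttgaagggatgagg

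The coding Scn8a exon of 123 nt (chr15:101024261-101024383, plus strand), 41 codons, was included at 19.2 FPKM in sham and 12.5, 20.9, 17.8, 14.5 and 15.3 FPKM at days 1 to 28. A form without it was listed at day 1 (1.14 FPKM, leaving 91.7% with the exon) and day 7 (0.0644 FPKM). The exon of 68 nt before it (chr15:101023839-101023906), known to the annotation from a non-coding transcript, was listed as skipped at the same days, and no library lists it as included. In Scn2a, an exon of 84 nt (chr2:65718938-65719021, plus strand) that the annotation places in another decay transcript was included in sham only, at 5.99 FPKM beside 34.7 FPKM without it, or 14.7%. The form without it had 18.9 to 25.3 FPKM post-stroke, so that it too was below sham in all 5 libraries. Scn3a transcripts with an intron of 1042 nt kept (chr2:65467026-65468067) made 43.6% of the 2 forms in sham, 42.7% at day 1 and 63.1% at day 3, were not listed at day 7 and were the listed form at day 28. Each of these forms rests on 1 pooled library, and a form that is not listed may be present below what the authors' tables list.

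The sodium leak channel Nalcn had 13.1 FPKM in sham and its lowest value, 8.90 FPKM, at day 1 (log2 ratio -0.55). Scn7a and Scn9a stayed below 1 FPKM where listed and were not listed in sham, and Scn4a, Scn10a and Scn11a had no value.

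Of 13 genes of the axon initial segment and node 12 had a value, and 0, 1, 0, 2 and 1 were lower at days 1, 3, 7, 14 and 28, and 0, 0, 1, 0 and 1 higher, of 11, 11, 12, 11 and 12 compared. List counts cover genes listed in both libraries, and so do the shares of all genes set beside them from here on. The 1 of 11 lower at day 3, 2 of 11 at day 14 and 1 of 12 at day 28 stand beside 2.10%, 4.66% and 2.11% of all genes, and the 1 of 12 higher at day 7 and at day 28 beside 7.08% and 3.00%. Their medians were -0.27, -0.18, -0.18, -0.35 and -0.14. The highest ratio was that of the adhesion protein Cntnap2 at day 28 (0.145 and 1.85 FPKM, log2 ratio 2.99). Cntnap2 was also the gene higher at day 7 (1.10 FPKM). Its sham value is below the minimum of 1 FPKM, so it was compared only at the days when it was high. The filter thus set the higher calls at days 7 and 28, and no conclusion is drawn from them.

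Among 7 channel partners, none listed in both libraries was lower by 2-fold. Fgf14, which binds the tail of alpha subunits, had 3.35 FPKM in sham and 7.98, 9.21, 8.61 and 10.1 FPKM at days 1, 3, 7 and 28, with the highest log2 ratio of the list (1.57 at day 28), and was not listed at day 14, where counting it as 0 would make it lower. This 1 of 7 higher at days 1, 3, 7 and 28 stands beside 4.13%, 7.15%, 7.08% and 3.00% of all genes. The lowest was the ubiquitin ligase Nedd4 at day 14 (-0.69). Of 9 genes that export sodium, the pumps and exchangers, 8 had a value and none was past 2-fold at any day, between the -0.57 of the exchanger Slc8a2 at day 3 and the 0.46 of the pump subunit Atp1b3 at day 7. Of 11 regulators of neuronal splicing and transcription, 9 were compared. Ptbp1, a splicing repressor low in neurons, had 7.94 FPKM in sham and 16.9 FPKM at day 3 (log2 ratio 1.08), and Srrm4, an activator of neuronal exons, 3.66 FPKM in sham and 0.671 FPKM at day 14 (-2.29), and the rest stayed within 2-fold. These are 1 of 9 higher at day 3 and 1 of 9 lower at day 14, beside 7.15% and 4.66% of all genes. The Ptbp1 call depends on the events used, as its ends were lower at day 3 (4.01 FPKM in sham and 0.945 FPKM). The Srrm4 value was an end in sham and a start at day 14, and by starts it was also lower (3.06 and 0.671 FPKM).

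Calcium channels gave a comparison of pore and auxiliary subunits outside the family, though not a clean one of length, since the auxiliary Cacnb4 (8225 nt) is longer than the pore subunit Cacna1a (7926 nt). The 8 pore subunits had median log2 ratios of -0.02, -0.44, -0.28, -0.07 and -0.30 at days 1, 3, 7, 14 and 28, and the 4 beta subunits -0.16, -0.24, -0.24, -0.01 and -0.10. Thus the pore median was above the beta median at day 1 and below it at the other days. By the gene value, Cacna1b at days 3, 14 and 28 and Cacna1g at day 28 (-1.61) were past 2-fold lower and Cacna1d at day 14 (1.13) higher. Some of these calls depend on the events used. By ends Cacna1b was not past 2-fold at these days (11.4 FPKM in sham and 7.71, 8.43 and 6.89 FPKM), and by starts Cacna1d was lower at day 14 (2.36 FPKM in sham and 0.418 FPKM). No calcium channel beta subunit was past 2-fold, with Cacnb4 lowest at day 14 (-0.72) and Cacnb2 highest at day 1 (0.35). The 1, 1 and 2 of 8 pore subunits lower at days 3, 14 and 28 stand beside 2.10%, 4.66% and 2.11% of all genes, and the 1 of 8 higher at day 14 beside 7.69%.

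Markers of the cells in the tissue were read beside the channels. In bulk RNA, fewer cells of a type and less RNA per cell cannot be told apart. Of 8 neuron markers 7 had a value, their summed FPKM was 1697 in sham and 1519, 1306, 1313, 1320 and 1487 post-stroke, led by Snap25 (706.0 FPKM in sham), and their medians of -0.08, -0.42, -0.31, -0.32 and -0.17 had the sign of the alpha medians. Tubb3 had no value. For the interneuron marker Pvalb the FPKM were 47.5 in sham and 43.6, 37.8, 33.4, 46.3 and 39.6, with its lowest ratio of -0.51 at day 7, beside -1.74 for Scn1a. Excitatory markers (4 of 5 with a value) summed to 619.3 FPKM in sham and 716.0, 501.3, 705.5, 565.3 and 727.9 post-stroke, led in sham by Slc17a7 and with no value for Neurod6, and inhibitory markers (5 of 6, Sst without a value), led by Gad1, to 191.3 and 205.7, 167.3, 173.1, 199.7 and 210.3. The medians of the inhibitory list, which holds Pvalb, were 0.12, -0.21, -0.06, -0.04 and 0.30 at days 1, 3, 7, 14 and 28. At day 7, 3 of its 5 genes were below sham, while Gad2 (0.17) and Slc32a1 (0.09) were above. The part of neuron content in the channel values was not tested.

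Striatal markers were present in the libraries from cortex. Their summed FPKM (7 of 9 with a value, Drd1 among those without) was 420.5 in sham and 485.9, 374.3, 381.7, 558.4 and 552.6 post-stroke, led by Ppp1r1b at 217.1 FPKM in sham. The sum was lowest at days 3 and 7, when Ppp1r1b had log2 ratios of -0.52 and -0.69, whereas the medians of the list were 0.00 and 0.02 and 3 and 2 of 7 genes were below sham. Scn4b was lowest at days 1 and 3. Without Scn4b the beta medians kept their sign at each day. Thalamic markers (3 of 3, led in sham by Prkcd) summed to 16.5 FPKM in sham and 18.7, 13.8, 20.2, 22.6 and 12.4 post-stroke. Hypothalamic markers (3 of 4, Hcrt without a value) were not listed in sham and summed to 54.3, 10.01, 33.3, 20.4 and 4.49 FPKM, led by Pmch at day 1. Choroid plexus markers (3 of 3), led by Ttr, had 284.8 FPKM in sham and 461.7, 181.0, 343.9, 295.8 and 559.4 post-stroke. Whether the dissected tissue or the expression of these markers differed between libraries cannot be told apart, and the part of either in the subunit values was not tested.

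Astrocyte markers (5 of 5) summed to 340.3 FPKM in sham and 559.5, 1026, 704.7, 609.9 and 400.0 post-stroke, led post-stroke by Gfap with a log2 ratio of 3.02 at day 3, while the medians of the list were -0.06, 0.39, 0.15, -0.10 and -0.01. Microglia and macrophage markers (6 of 6, Cx3cr1 not listed in sham) had 110.4 FPKM in sham and 126.7, 317.6, 483.1, 382.4 and 127.0, led by C1qa, with the highest ratio for Tyrobp at day 7 (2.76) and medians of 0.16, 1.37, 1.12, 1.75 and 0.25. P2ry12 went the other way at day 1 (18.0 FPKM in sham and 7.01 FPKM, log2 ratio -1.35). Of the 5 genes listed in both libraries, 2, 0, 1, 1 and 2 were below sham in order of day. Oligodendrocyte markers (5 of 6, Mobp without a value), led by Mbp, had 1716 FPKM in sham and 2177, 1671, 1995, 1948 and 1548. Of 3 precursor markers Cspg4 alone had a value (1.97 FPKM in sham and 1.45, 2.09, 3.41, 2.44 and 1.10), and Pdgfra and Olig1 had none. Endothelial markers (3 of 3, Cldn5 listed at day 1 only), led in sham by Pecam1, had 6.17 FPKM in sham and 7.37, 11.9, 5.54, 4.02 and 5.74. Flt1 was not listed at day 14, so the sum there is Pecam1 alone, which was above its sham value of 3.33 FPKM. The part of the glial cells in the result was not tested.

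Genes with the most similar course were sought by the Euclidean distance of the 5 log2 ratios among 10156 genes of at least 1 FPKM in every library. For Scn1a they were Pdcl (distance 0.60), Dbp (0.77) and Top1 (0.79), and for Scn2a Rab27b (0.28), Rassf3 (0.28) and Sgtb (0.33). For Scn3a they were Camk1, Kxd1 and Ttc37 (0.18, 0.19 and 0.20), and for Scn8a Eya3, Apln and Appl1 (0.11, 0.12 and 0.18). The beta subunits were nearest to Atcay, Ugcg and Neurl4 for Scn2b (0.08, 0.09 and 0.10), Synpr, Las1l and Lzts1 for Scn3b (0.08, 0.10 and 0.13), and Ccdc113, Eno4 and Ankrd34a for Scn4b (0.19, 0.20 and 0.20). No subunit was among the 3 nearest genes of another. The nearest gene of Scn1a was farther away than those of the other subunits.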

How the data were processed

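Poly(A) RNA of the ipsilateral cortex, pooled from 3 mice per group, was sequenced as strand-specific paired-end reads of 150 bases. The submitters' processing notes name Trimmomatic 0.30, HISAT2 2.0.1, HTSeq 0.6.1 and the build mm10. The values are FPKM computed and deposited by the authors for transcript starts, transcript ends and splicing events. The tool that called the events is not given in the sources used here. A gene value was taken as described above, by the Ensembl identifier of each event. Events without an identifier were left out, and 15411 of 15441 identifiers matched GENCODE M21. A pseudocount of 0.1, a minimum of 1 FPKM in 1 of 2 libraries and a 2-fold threshold were used, and a gene not listed counted as 0 in the counts over all genes. The length correction subtracted the median log2 ratio of each of 20 length bins. No p-value could be computed. The members and the gene lists were chosen with earlier results of these data known. Named genes are the 7 members, genes from the largest and smallest ratios of the lists, and the 3 nearest genes by distance. Other genes named were chosen after their values were seen. Alternatives covered the events used, the pseudocount, scaling, length, the mean, the threshold, the filter and Scn4b. Methods were tested on simulated data. Python 3.11.15, numpy 2.4.6, pandas 2.3.3 and matplotlib 3.10.9 were used.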

Additional observations from a re-analysis of the deposited data

How the results depend on the processing

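An alternative was taken to move a log2 value when it shifted it by at least 1.5-fold, and a count when it changed it by more than 1.5 times. With transcript starts alone, the alpha median was -1.15 at day 1 and -1.86 at day 14 (2 subunits listed), the alpha minus beta difference was -0.86 and -1.67, and the lower subunits were 2 of 7 and 1 of 5, beside 5.50% and 9.96% of all genes by starts. At day 7 1 of 7, Scn3a, was higher, beside 7.48%. Using transcript ends alone (3 alpha and 2 beta subunits), the difference was -0.87 at day 7 and 0.80 at day 28. At day 28 the beta median by ends was -0.83 and 1 of 5 subunits, Scn3b, was lower, beside 2.77% of all genes by ends. The FPKM of the Scn3b ends was only 0.028 of that of its starts at day 28, so these values rest on minor ends. After the correction for length, 0 of 7 subunits were lower at day 1, beside 4.47% of all genes with that correction, and 1 of 7, Scn3a, was higher at day 14, beside 7.66%. A 1.5-fold threshold gave 2 lower subunits at days 1, 3, 7 and 14 and 1 at day 28, with 1 of 7 higher at day 14, beside 18.5% of all genes. Why these values moved was not tested, beyond the members each construction leaves. Below that size, the beta median at day 7 was 0.03 with ends alone, and the day 1 difference 0.32 with ends alone and 0.04 with the length correction. Events inside the annotated span, a pseudocount of 1 and centring moved none of the medians, differences or counts. The mean, run for the medians and differences, and leaving out Scn4b, run for the beta medians and differences, moved none of these, although the day 14 difference of -0.33 was -0.08 by the mean and -0.09 with the length correction. No filter, and counting only genes listed in both libraries, an alternative chosen after seeing the data, were run for the counts and moved none. A limit of 8000 nt, chosen likewise, gave 33.8% of long genes without a start at day 14. Since library depths are not known, no detection limit can be given.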

Other observations

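Map2, of 6258 nt, had 113.2 FPKM in sham and 68.4, 163.7, 91.7, 23.7 and 69.5 FPKM at days 1, 3, 7, 14 and 28, all from its start events. Srrm4 had an end event in every library except day 14 and a start event in every library except day 1. The calcium channel gene Cacna1b had starts of 11.6 FPKM in sham and 13.6, 1.91, 1.91 and 8.24 FPKM at days 1, 3, 7 and 28, with none listed at day 14, while its end event was between 6.89 and 11.4 FPKM in the 6 libraries. These genes were chosen after their values were seen.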
